A study of Mus musculus with 6 samples.

Results

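The genes described here are 10 feedback genes of the ERK pathway: the Sprouty genes Spry1, Spry2 and Spry4, the Spred genes Spred1 and Spred2, the dual-specificity phosphatase genes Dusp4, Dusp5 and Dusp6, and the ETS transcription factor genes Etv4 and Etv5. They were chosen by symbol, and all 10 were found among the 12830 genes of the deposited table. RNA was sequenced from cultures of primary bone marrow stromal cells (BMSCs), the adherent cells of marrow, which had been under osteogenic induction for 2 days. The donors were 8 weeks old. The control group, FF, came from Rras2f/f mice, in which both copies of Rras2 are floxed, and the knockout group, cKO, from Prx1;Rras2f/f mice, which carry the same floxed alleles. The Prx1 promoter, used to drive Cre recombinase in limb mesenchyme, is not a driver for blood cells. Both groups thus carry floxed Rras2, and no wild-type group is included. There were 3 libraries per group, with 31934714 to 37561452 counts over the listed genes. Whether replicates are separate animals is not stated in the labels. The p-values therefore reflect the spread among these samples alone, and that spread may be technical.

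In the ERK pathway, activated growth factor receptors load Ras GTPases with GTP, and Ras then switches on the kinases RAF, MEK and ERK in turn. Active ERK raises the transcription of genes that damp the same pathway at several levels, so the transcripts of these genes are widely read as a sign of how much ERK output a cell has. In the skeletal lineage the pathway acts downstream of FGF, PDGF and other receptors during the formation of osteoblasts. Rras2 encodes TC21, a Ras-related GTPase that can reach some of the same effectors.

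Rras2, the targeted gene, had 49.7, 50.1 and 44.7 CPM in FF replicates 1, 2 and 3 and 26.7, 29.0 and 26.8 CPM in the cKO replicates. CPM are counts relative to library size, scaled between libraries with TMM factors. Every cKO library was below every FF library, and the log2 fold change was -0.81. The transcript was therefore lower but present in all cKO libraries, and gene counts do not show which exons or which cells the remaining reads came from.

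Of the 10 feedback genes, Spry1 alone passed the test of cKO against FF. It was 1.39-fold higher in cKO, while the other 9 did not pass the test. A gene was called where its adjusted p was below 0.05 in the edgeR quasi-likelihood test, with the Benjamini-Hochberg method applied to all 12830 genes. In all, 4.84% of genes were called, 2.1% higher and 2.74% lower in cKO. Of the 10 members 1 was called higher and 0 lower, a share of 10% that rests on 1 gene. At an unadjusted p below 0.05 the members' count was also 1 of 10, against 17.3% of all genes. The median log2 fold change of the members was 0.04, against 0.00058 over all genes, and 7 of the 10 values were above zero. The members' values lay between -0.19 for Dusp5 and 0.48 for Spry1.

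Sequence upstream of 3 members is shown because Spry1 rose and its relative Spry2 and the ERK phosphatase gene Dusp6 did not pass the test, so that the bases before their start sites can be read side by side. Each run is the 250 bases before the RefSeq start site on mm10, written along the strand of the gene. They are chr3:37639697-37639946 on the plus strand for Spry1, chr14:105896820-105897069 on the minus strand for Spry2 and chr10:99262981-99263230 on the plus strand for Dusp6. Capitals mark matches to any of 8 strings searched on both strands.
Spry1: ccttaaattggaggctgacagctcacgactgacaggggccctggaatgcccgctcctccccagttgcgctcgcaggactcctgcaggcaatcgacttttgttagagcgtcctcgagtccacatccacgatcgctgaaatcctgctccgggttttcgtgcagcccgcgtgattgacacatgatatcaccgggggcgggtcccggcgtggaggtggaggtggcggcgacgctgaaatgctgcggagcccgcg
Spry2: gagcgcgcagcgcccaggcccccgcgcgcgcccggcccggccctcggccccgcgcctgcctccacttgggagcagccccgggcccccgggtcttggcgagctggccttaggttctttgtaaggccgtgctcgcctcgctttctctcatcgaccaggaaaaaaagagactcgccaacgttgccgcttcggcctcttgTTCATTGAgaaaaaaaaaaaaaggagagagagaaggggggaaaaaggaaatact
Dusp6: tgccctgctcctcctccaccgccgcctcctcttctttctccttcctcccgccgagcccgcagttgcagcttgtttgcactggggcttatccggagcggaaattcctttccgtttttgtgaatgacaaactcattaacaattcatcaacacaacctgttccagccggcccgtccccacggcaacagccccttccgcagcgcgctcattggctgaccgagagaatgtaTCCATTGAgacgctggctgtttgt

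The strings were TGAATGAA, TCAATGAA, TGAATGGA and TCAATGGA for Capicua (CIC), a repressor that ERK signalling inactivates, ACCGGAAGT and CCGGAAG for ETS factors, TGANTCA for AP-1 and CACGTG for the E-box. TGAATGGA and TCAATGGA were added after the windows had been read, and CCGGAAG lies within ACCGGAAGT. RefSeq windows from 250 bases before to 50 bases after the start were searched for 7 of the 10 members. They made 8 windows in all because Etv5 had a pair of start sites. Chromosome 18, which holds Spry4, was left out of the search of members. The Spry2 window had TCAATGAA on the opposite strand, its first base 54 bases before the start, a string present in 0.749% of 32851 promoter windows of the same length. The Dusp6 window had TCAATGGA on the opposite strand 24 bases before the start and again from base 2 of the transcript, and 0.67% of all windows hold that string. None of the 8 strings was found in the windows of Spry1, Spred1, Spred2, Dusp5 and Etv5. Among all windows, 1.3% held TGAATGAA, 1.21% held TGAATGGA and 1.1% held the longer ETS string. The shorter ETS string was in 8.86%, the AP-1 string in 7.81% and the E-box in 7.15%. These matches are descriptions of letters in short windows, not binding sites.

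Expression per length spanned a wide range among the 10 genes. On the authors' FPKM scale, which divides by gene length and library size, the mean level over the 6 libraries was 37.6 for Spred1, 28.4 for Dusp6, 15.5 for Etv5, 9.85 for Spry1 and 7.87 for Spred2. It was 2.79 for Spry2, 2.49 for Dusp4, 1.03 for Dusp5, 0.958 for Spry4 and 0.474 for Etv4. Against all listed genes Spred1 stood at the 86.1 percentile of mean FPKM and Etv4 at the 3.72 percentile. The Sprouty, phosphatase and ETS genes thus each included both a member above 9 FPKM and a member near or below 1 FPKM. Neighbours in this order were separated in every library, with non-overlapping ranges, except for 3 pairs. Spry1 was above Spred2 in 5 of 6 libraries, Spry2 was above Dusp4 in 6 of 6 although their ranges overlapped, and Dusp5 was above Spry4 in 4 of 6.

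**Figure D1:**
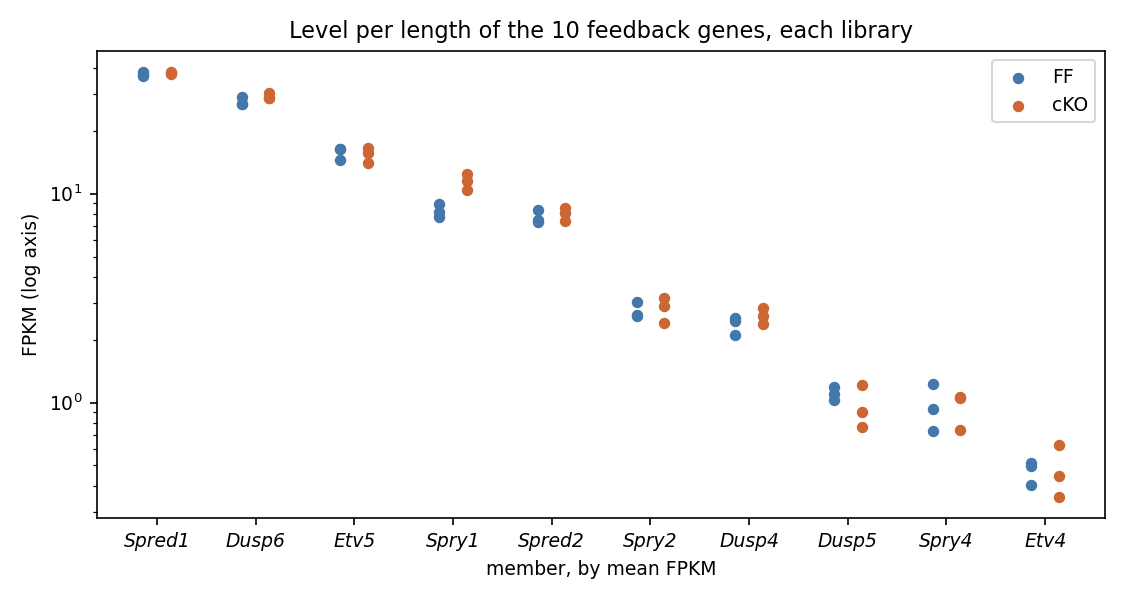
FPKM of each member in each library on a log axis, ordered by mean level, with FF in blue and cKO in orange. Levels fall from 37.6 FPKM for Spred1 to 0.474 FPKM for Etv4, and Spry1 is the member whose FF and cKO points separate most clearly.

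Sprouty proteins inhibit signalling between receptor tyrosine kinases and RAF. Spry1 (ENSMUSG00000037211, a protein-coding gene at chromosome 3, 37639947 to 37644598, plus strand of mm10) had 22.8, 24.1 and 20.7 CPM in FF replicates 1, 2 and 3. In cKO replicates 1, 2 and 3 it had 28.4, 33.8 and 31.9 CPM. All cKO libraries were above all FF libraries, the nearest being cKO replicate 1 and FF replicate 2. FF averaged 22.5 ± 1.69 CPM and cKO averaged 31.4 ± 2.73 CPM (SD, n = 3). On the log2 scale the rise was 0.48 ± 0.0823 (standard error), with an edgeR adjusted p of 0.00348. As a percentage the rise was 39.1%, with a 95% interval from 23.1% to 57.2%. The difference was larger than the spread between replicates, with coefficients of variation of 7.51% in FF and 8.69% in cKO, of which read counting alone would give 3.25%. The authors' deposited table gave a log2 fold change of 0.47 and an adjusted p of 3.36e-05. Tested against a change of 1.2-fold in place of any change, a setting chosen after the data were seen, Spry1 was not called (edgeR glmTreat adjusted p = 0.183), and 0.787% of all genes were. An uncharacterised transcript model, Gm42922, overlaps Spry1 on the other strand. It is not a row of the table, and the strand setting of the counting is not given in the sources used here.

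Markers of cells other than stromal cells were high in these cultures, and several marker sums moved with the groups. Macrophage markers, 10 of 10 listed, summed to 13062 to 14099 FPKM in FF and 14328 to 14673 in cKO. Most of that came from Lyz2, the lysozyme gene, at a mean of 10995 FPKM in FF and 11817 in cKO. Lyz2 was not called (edgeR adjusted p = 0.293). Of the 10 macrophage markers, Tyrobp and Mrc1 were called higher and Cd14 lower, or 30% against 4.84% of all genes. Each of these calls was lost in some of the alternative fits. Stromal markers, 10 of 10, summed to 3799 to 3820 FPKM in FF and 3373 to 3635 in cKO, and osteoblast markers, 8 of 8, to 3727 to 3879 and 2420 to 2949. The stromal list did not move one way: Col1a1 and Col1a2, the collagen I genes, fell from means of 1259 and 1154 FPKM to 831 and 844, while Cxcl12, a chemokine gene, and Lepr, the leptin receptor gene, rose from 1269 and 5.63 FPKM to 1751 and 7.69. Of the 10 stromal markers 2 were called higher and 3 lower, or 50% against 4.84% of all genes. Col1a1 is also counted in the osteoblast sum. In the osteoblast list 3 of 8 markers, Col1a1, Phospho1 and Sparc, were called, all lower, or 37.5%. The log2 fold changes of Phospho1 and Sparc were -1.31 and -0.34 (edgeR adjusted p = 0.0144 and 0.00107). Phospho1 lost its call in some of the alternative fits. All 8 osteoblast markers had log2 fold changes below zero, with a median of -0.62. For all 8 the groups did not overlap, or 100% against 22.5% of all genes. The macrophage, stromal and osteoblast sums did not overlap between the groups. The same held for lymphocyte and plasma cell markers, 3 of 9, at 167 to 177 FPKM in FF and 276 to 318 in cKO, and for adipocyte markers, 6 of 7, at 691 to 748 and 787 to 822. All 3 measured lymphocyte and plasma cell markers, Igkc, Ighm and Jchain, were called higher, or 100% against 4.84% of all genes. Most of the adipocyte sum came from Lpl, at means of 558 FPKM in FF and 600 in cKO, which was not called (edgeR adjusted p = 0.191). Adipoq and Cd36 were called higher, or 33.3% of the measured adipocyte markers. The sums of neutrophil markers (7 of 7), osteoclast markers (7 of 7) and endothelial markers (7 of 8) overlapped between the groups, at 593 to 880, 539 to 811 and 9.02 to 16.04 FPKM over all libraries, and 0 of the listed markers were at zero in every library. Within these lists Atp6v0d2, an osteoclast proton pump subunit gene, was called higher (log2 fold change 0.48, edgeR adjusted p = 0.000129). The other osteoclast markers were not called. The fold changes of all 7 endothelial and all 7 neutrophil markers were below zero, with medians of -0.48 and -0.21, and 0 of them were called. Groups did not overlap for 3 of the endothelial markers, or 42.9% against 22.5% of all genes. The B and T cell genes Cd79a, Ms4a1, Cd3e and Cd3g are not rows of the table. In bulk RNA, fewer cells of a type and less RNA per cell cannot be told apart, and the part of these shifts in the Spry1 result was not tested.

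The other Sprouty genes did not separate. Spry2 had 6.11, 6.84 and 5.89 CPM in FF and 7.27, 6.65 and 5.59 CPM in cKO, so the lowest and the highest library were both cKO. Its change was 3.53% with a 95% interval from -16.2% to 27.8% (edgeR adjusted p = 0.905). Spry4 had 4.95, 6.31 and 3.77 CPM in FF and 5.59, 5.53 and 3.91 CPM in cKO. The libraries of each group were spread far apart, with coefficients of variation of 25.4% in FF and 19.0% in cKO where counting alone would give 7.52%. Its log2 fold change was -0.0035 (edgeR adjusted p = 0.996), and its interval reached from -26.2% to 34.9%. Spry3 was not listed. Set against Spry2 in the same library, Spry1 stood at a FPKM ratio of 3.13, 2.96 and 2.96 in FF and 3.29, 4.26 and 4.78 in cKO, which does not overlap.

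**Figure D2:**
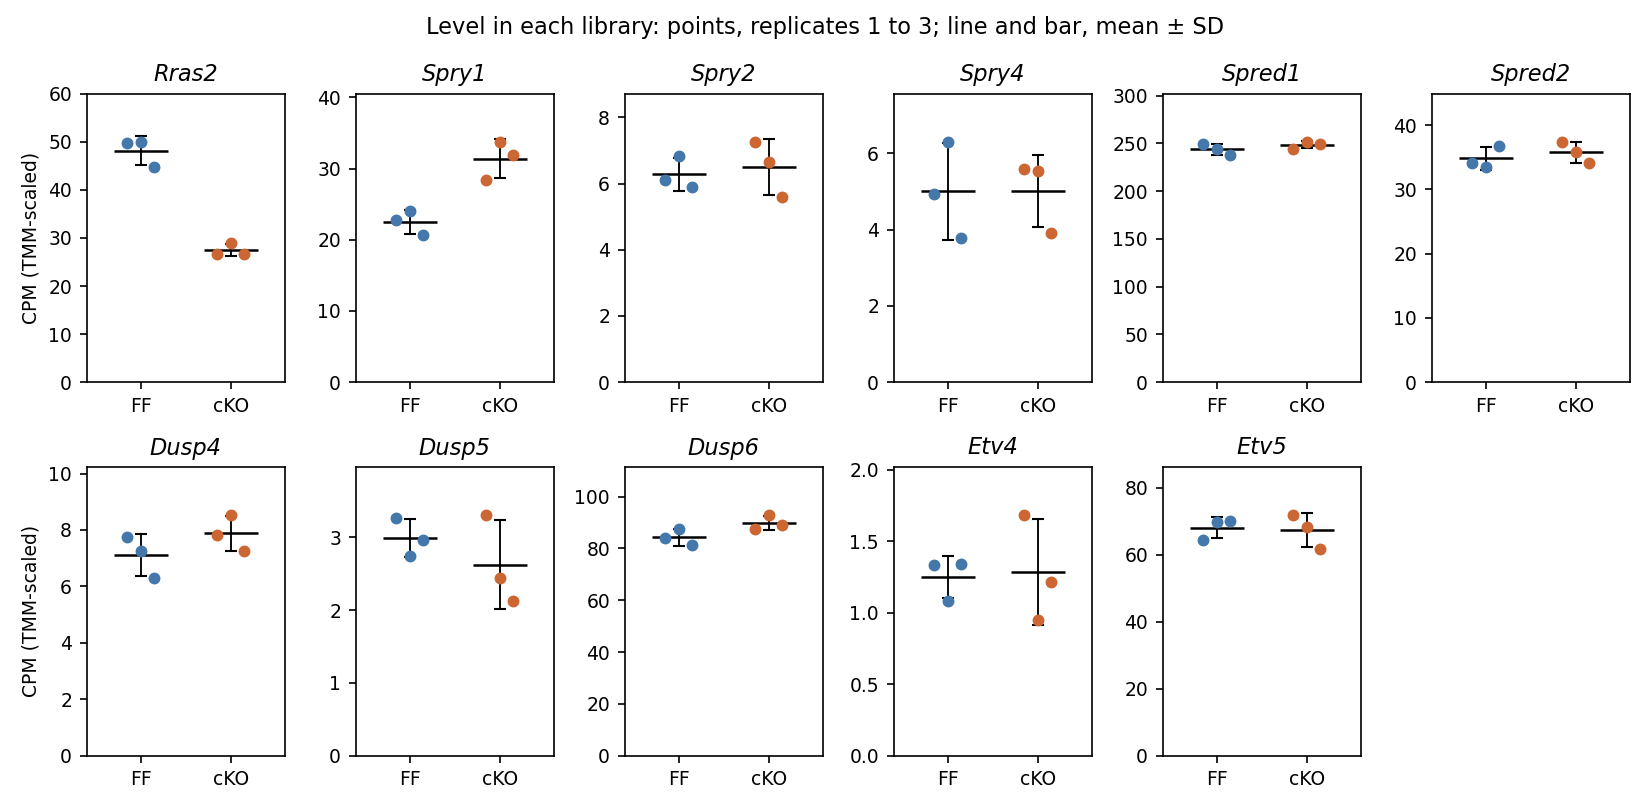
TMM-scaled CPM of Rras2 and of each member in FF and cKO, points for replicates 1 to 3, with the mean as a line and the SD as a bar, every axis starting at zero. The groups are apart for Rras2 and Spry1 and touch or overlap for the others, with Dusp6 narrowly apart.

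Spred proteins share the Sprouty-type domain and bring the GTPase-activating protein neurofibromin to Ras. Spred1, the most highly expressed member, had 249.1, 245 and 238 CPM in FF and 245, 252 and 249.7 CPM in cKO. Those 6 libraries lay within 1.06-fold of one another, and the groups overlapped. Its change was 1.997%, with an interval from -4.04% to 8.41% (edgeR adjusted p = 0.790). Spred2 had 34.2, 33.5 and 36.8 CPM in FF and 37.5, 35.8 and 34.1 CPM in cKO, also overlapping, with an interval from -6.97% to 13.3%. Both intervals end below 23.1%, the lower bound measured for Spry1. Spred3, the remaining family gene, had 1.44 FPKM in FF and 1.46 FPKM in cKO (log2 fold change 0.03, edgeR adjusted p = 0.956).

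Dusp4, Dusp5 and Dusp6 encode phosphatases that remove the activating phosphates of MAP kinases. Dusp6, a cytoplasmic phosphatase selective for ERK, had 84.1, 87.5 and 81.2 CPM in FF and 87.6, 92.9 and 89.1 CPM in cKO. The lowest cKO library was above the highest FF library by a margin of less than 0.1 CPM, so the groups did not overlap, as they also did not for 22.5% of all genes, 11.3% with cKO higher. The change was 6.6%, with a 95% interval from -0.967% to 14.8%, which missed the threshold (edgeR adjusted p = 0.369). Spry1 and Dusp6 were the 2 members of 10 whose groups did not overlap in CPM, a share near that of all genes. On the FPKM scale the Dusp6 groups overlapped, with FF replicate 2 at 29.0 and cKO replicates 1 and 3 at 28.6 and 28.7. Dusp4, a nuclear phosphatase, had 7.76, 7.26 and 6.30 CPM in FF and 7.84, 8.53 and 7.27 CPM in cKO. Dusp4 groups overlapped, and the interval ran from -8.53% to 34.3% (edgeR adjusted p = 0.620). Dusp5, a nuclear phosphatase selective for ERK, had 3.27, 2.75 and 2.96 CPM in FF and 3.31, 2.45 and 2.12 CPM in cKO. Here the highest and the lowest values both came from cKO, with counts of 77 to 116 per library and an interval from -36.2% to 20.8% (edgeR adjusted p = 0.724). An antisense transcript model overlaps Dusp5 and is not in the table.

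Etv4 and Etv5 encode ETS transcription factors of the PEA3 group, which lie downstream of FGF receptors and ERK. Etv5 had 64.4, 69.9 and 70.0 CPM in FF and 71.8, 68.3 and 61.8 CPM in cKO. The groups overlapped fully, and the change was -1.17% with an interval from -9.98% to 8.51% (edgeR adjusted p = 0.929). Etv4 was the weakest member, with 46, 41 and 43 counts in FF and 59, 33 and 44 counts in cKO. The interval of Etv4 ran from -33.4% to 58.1%, which includes the value measured for Spry1.

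**Figure D3:**
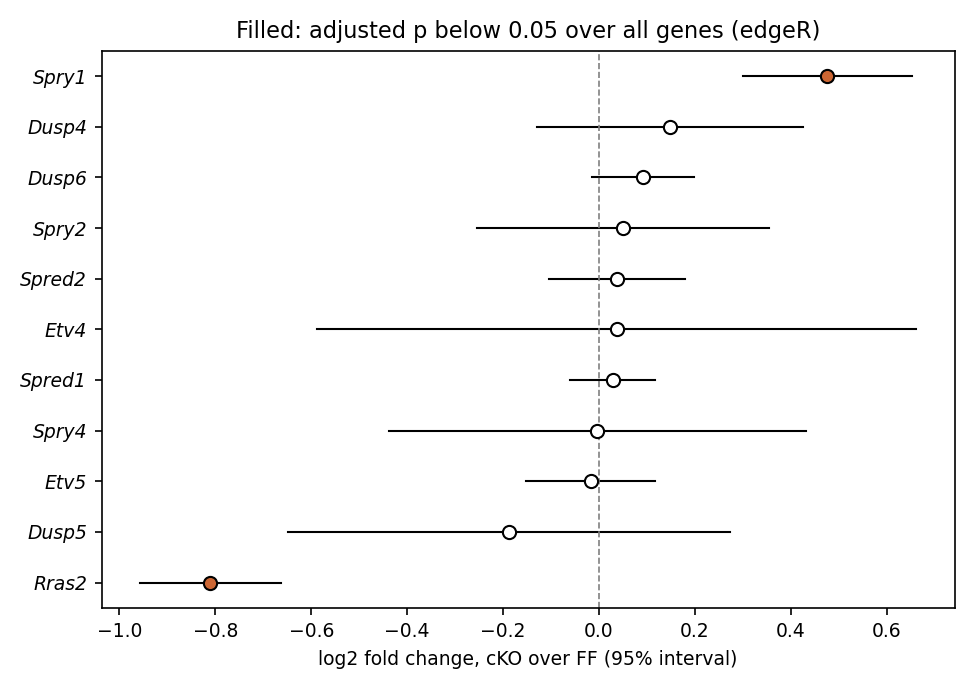
Log2 fold change of cKO over FF for the 10 members and Rras2, with the 95% interval of the edgeR fit as a bar. Spry1 at 0.48 and Rras2 at -0.81 are filled because they were called, and every other interval crosses zero.

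Ratios taken within a library do not depend on how libraries are scaled to each other. The FPKM ratio of Spry1 to Dusp6 was 0.304, 0.309 and 0.287 in FF and 0.364, 0.408 and 0.3996 in cKO. Its ratio to Etv5 was 0.565, 0.549 and 0.473 in FF and 0.632, 0.789 and 0.821 in cKO. In both, every cKO library was above every FF library. Over the 9 other members the log2 ratio was higher in cKO by 0.32 to 0.69, and the groups did not overlap for 6 of the 9, the exceptions being Spry4, Dusp5 and Etv4. For those 6 the two-sided exact permutation test gave p = 0.10, the smallest that 3 against 3 libraries allow, and 0.15 adjusted over the 9 ratios. The difference between Spry1 and the other members therefore could not pass a threshold of 0.05 in this test. Spry1 had the highest log2 fold change of the 10 members, so the direction of these differences follows from its use as numerator. The 9 ratios share that numerator and are not separate results.

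**Figure D4:**
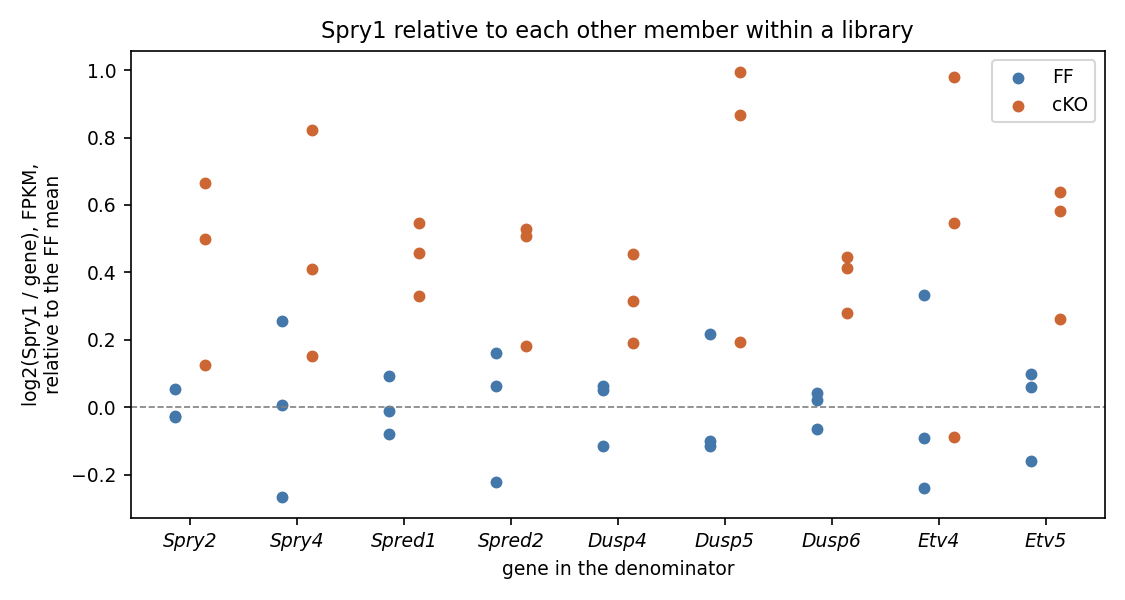
Log2 ratio of Spry1 FPKM to each other member in the same library, relative to the FF mean of that ratio, FF in blue and cKO in orange. cKO points lie above all FF points for Spry2, Spred1, Spred2, Dusp4, Dusp6 and Etv5, by a mean of 0.32 to 0.49 on the log2 scale.

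Among the genes with a profile most like Spry1 over the 6 libraries were Cd59a and Fmo1. Likeness was the root mean square difference of log2 CPM after centring each gene, taken over 10780 genes of at least 5 CPM, and it was 0.025 and 0.053. Cd59a, an inhibitor of complement, went from 7.59 to 10.3 CPM on average, and Fmo1, a flavin monooxygenase, from 9.26 to 13.3. Spry4 had the largest spread of log2 CPM among the members, and its nearest profiles were those of Faap100, Cfap298 and Amacr, at 0.13, 0.14 and 0.14. Their log2 fold changes were -0.07, 0.05 and 0.10, and in all 3, as in Spry4, FF replicate 2 was above both FF replicates 1 and 3. All these genes were picked for likeness over the same 6 libraries. The shared order of replicates, and the rise of Cd59a and Fmo1, therefore follow from the choice.

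Other genes of the pathway were taken from lists covering its inputs, cascade and outputs. Of 125 measured genes outside the members and Rras2, 5 were called higher and 3 lower, which is 6.4% against 4.84% of all genes. The count rested on single libraries. It was 4 higher and 1 lower without FF replicate 1 or without FF replicate 2, 3 and 2 without FF replicate 3, 10 and 13 without cKO replicate 1, 2 and 1 without cKO replicate 2, and 4 and 2 without cKO replicate 3.

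Among inhibitors of receptors and of Ras outside the 10 members, whether or not induced by ERK, 1 of 15 was called. That is 6.67%, near the 4.84% of all genes. Errfi1, which encodes MIG6, an inhibitor of EGF receptor kinases, had 44.0, 48.1 and 42.5 CPM in FF and 61.7, 81.8 and 82.3 CPM in cKO. The groups did not overlap, and the rise on the log2 scale was 0.75 ± 0.117 (standard error, edgeR adjusted p = 0.0148). The call ended without FF replicate 1, FF replicate 3 or cKO replicate 2 (edgeR adjusted p = 0.107, 0.0709 and 0.0538). The median of this list was 0.02. Of the other MAP kinase phosphatases, 0 of 8 were called, with a median of 0.02, and those of highest mean FPKM, Dusp7 and Dusp1, had log2 fold changes of 0.07 and -0.02. Cic, the Capicua gene, had 214.8, 217 and 212 CPM in FF and 214, 174 and 180 CPM in cKO, and was not called (edgeR adjusted p = 0.216). Atxn1l, the gene of a Capicua partner, had a log2 fold change of 0.04.

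Immediate early genes, which ERK and other kinases switch on within minutes, had 0 calls of 19. Their median log2 fold change was 0.01, with values from -0.23 to 0.27. Atf3 and Jun, those of highest mean FPKM, had 0.08 and 0.01. Later ERK output genes had 1 call of 19, or 5.26%, near the 4.84% of all genes, and a median of -0.02. Epha2, an ephrin receptor gene, had 30.8, 27.3 and 31.4 CPM in FF and 18.5, 12.7 and 12.5 CPM in cKO. It fell by 1.03 on the log2 scale (edgeR adjusted p = 0.0113, and 0.0509 without FF replicate 1). The cascade from adaptors to ERK and its substrate kinases, without Rras2, had 0 calls of 29, with log2 fold changes between -0.12 and 0.15.

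Of 18 receptor tyrosine kinase genes 1 rose and 2 fell, or 16.7% against 4.84% of all genes, and the median was -0.15. Groups did not overlap for 2 with cKO higher and 7 with cKO lower, or 50% against 22.5% of all genes. The number called was 0 without FF replicate 3 or without cKO replicate 2, 1 without FF replicate 2 or without cKO replicate 3, 2 without FF replicate 1 and 8 without cKO replicate 1. Egfr, the EGF receptor gene, had 22.2, 24.4 and 21.6 CPM in FF and 27.2, 31.0 and 31.3 CPM in cKO, a rise of 0.39 on the log2 scale (edgeR adjusted p = 0.0101). Ddr2, a collagen receptor gene, fell by 0.24 on the log2 scale and Fgfr1, an FGF receptor gene, fell by 0.26 (edgeR adjusted p = 0.0087 and 0.0342). Each of these calls depended on single libraries. Egfr lost its call when FF replicate 3, cKO replicate 2 or cKO replicate 3 was left out (edgeR adjusted p = 0.0598, 0.0629 and 0.0565). Ddr2 lost it without FF replicate 2, FF replicate 3 or cKO replicate 2 (0.0702, 0.0526 and 0.0566). Fgfr1 lost it without FF replicate 1, 2 or 3, without cKO replicate 2 or 3 (edgeR adjusted p = 0.0938, 0.135, 0.119, 0.157 and 0.119), and in limma-voom (0.0808).

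Of 12 measured growth factor genes 3 rose and 0 fell, or 25% against 4.84% of all genes called and 2.1% called higher, with a median of 0.10. With 1 library left out the number called ran from 2 (without FF replicate 2 or without cKO replicate 2) to 5 (without cKO replicate 1). Fgf7, a ligand of FGFR2, had 119, 115 and 114 CPM in FF and 130, 153 and 148 CPM in cKO (a rise of 0.31 on the log2 scale, edgeR adjusted p = 0.00519). Kitl, the ligand of KIT, and Igf1, an insulin-like growth factor, rose by 0.32 and 0.30 on the log2 scale (edgeR adjusted p = 0.00449 and 0.00949). All 3 were above every FF library in every cKO library. Igf1 lost its call without FF replicate 2 or cKO replicate 2 (edgeR adjusted p = 0.0682 and 0.0691), while Fgf7 and Kitl were called without any 1 library.

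**Figure D5:**
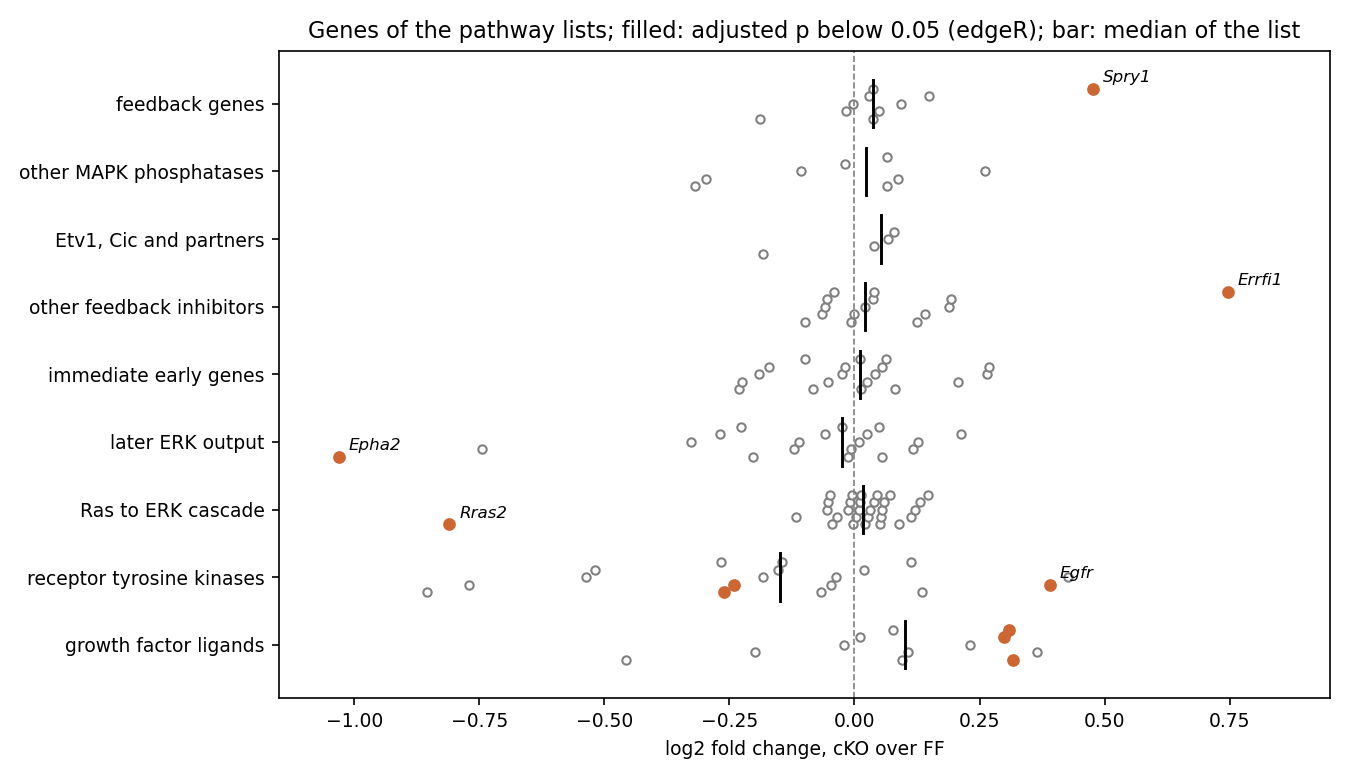
Log2 fold change of cKO over FF for each gene of the pathway lists, 1 row per list, with called genes filled and the median of each list as a bar. Most lists centre near zero, Spry1 and Errfi1 lie to the right at 0.48 and 0.75, and Epha2 and Rras2 lie to the left at -1.03 and -0.81.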

How the data were processed

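RNA-seq of 3 FF and 3 cKO cultures was analysed from 1 deposited table. Per the file headers it holds a count per gene and library, not normalized, and FPKM values. It also holds the mean of log2(FPKM + 1) over libraries and, per the file headers, the authors' log2 fold change, p-value and adjusted p-value. The submitters' processing notes name mm10 as the build. For the aligner, the counter and the authors' test, no name was given in the sources used here. The main test was that of edgeR 4.0.16, run under R 4.3.3 on the counts (TMM, filterByExpr, which removed 0 genes, robust quasi-likelihood F test, no covariates). Intervals are the coefficient ± its standard error times the t quantile. On simulated counts for this comparison with 12830 genes, 55% of 100 genes changed 1.4-fold and 88% of 100 changed 2-fold were recovered. False calls numbered 9 beside each of these sizes. The recovered shares are over all changed genes and are not values for members of low count. Alternatives were other scalings and filters, DESeq2 1.42.0, limma-voom (limma 3.58.1), a replicate block and each library left out. The DESeq2 fit gave log2 fold changes of 0.4746 for Spry1 and -0.812 for Rras2, the same as the deposited values. The DESeq2 and deposited values are therefore not separate results. GENCODE M21 gave coordinates and names for 51 rows without a symbol, and RefSeq (GRCm38, the assembly of mm10) the promoter windows.

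The members and all lists were chosen with earlier results of these data known. The genes named are Rras2, the members, called list genes (at most 4 per list by p, otherwise the 2 of highest FPKM) and the 3 nearest profiles of the called member and of the member of largest spread, of which 1 is not reported here. The neutrophil and endothelial marker lists were an exception, with no gene named. Lyz2 and Lpl were named for their part in the marker sums. Lists are described by counts and medians, without a set test.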

Additional observations from a re-analysis of the deposited data

How the results depend on the processing

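Spry1 was called in all 15 alternatives of scaling, filter, tool, block and left-out library, with log2 fold changes from 0.42 to 0.54 and adjusted p-values from 3.36e-05 (DESeq2) to 0.0321 (edgeR without cKO replicate 2). With a 1.2-fold threshold, chosen after the data were seen, 0 members were called. For the other 9 members 0 of 142 values were called, each value being that of a single member in a single setting, the 1.2-fold threshold included. These values come from the same libraries and are not separate tests. With 1 library left out, the members called remained at 1 to 1 higher and 0 to 0 lower. Genes called ranged from 268 to 1166, higher from 107 to 535 and lower from 161 to 631. The pathway lists ranged from 2 to 10 higher and from 1 to 13 lower. DESeq2 called 7 pathway genes lower and limma-voom 177 genes higher. The changes of 4 members, all near zero, and that of Fgf2 turned in sign. With 1 library left out, the log2 fold change ranged from -0.21 (without cKO replicate 1) to 0.21 for Etv4, from -0.066 to 0.041 (without cKO replicate 3) for Etv5, and from -0.037 (without cKO replicate 1) to 0.15 for Spry2. For Spry4 it ranged from -0.17 to 0.20 (without FF replicate 2), and for Fgf2 from -0.94 to 0.070 (without cKO replicate 3). The cause was not tested. With the replicate number as a block, Spry4 had 0.011, 669 genes were called, and Spry1 had 0.48 (edgeR adjusted p = 0.00303). The deviations of same-numbered libraries had correlations of -0.04, 0.07 and -0.13. The highest correlations with a library of another number were 0.20, 0.05 and 0.14. With 3 libraries per group these values cannot decide whether same-numbered libraries were handled together. Depth limits Etv4 and Dusp5 most, at 33 to 59 and 77 to 116 counts.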

Other observations

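Around Spry1, 6 listed genes lay within 500 kb on chromosome 3 and 0 of them were called. Fgf2, the basic fibroblast growth factor gene, lies 229839 bp from Spry1 and is among the growth factor genes, but was singled out after its values were seen. It had 13.3, 16.4 and 15.8 CPM in FF and 14.5, 17.4 and 1.38 CPM in cKO, so cKO replicate 3 was far below the other 5 libraries. Its log2 fold change was -0.46 (edgeR adjusted p = 0.861), and 0.070 without cKO replicate 3. On the FPKM scale Fgf2 ranged from 2.07 to 2.59 in FF and had 2.26, 2.65 and 0.982 in cKO. The ratio of CPM to FPKM in cKO replicate 3 was 0.216 of the median for Fgf2, while for the 10 members that ratio stayed between 0.971 and 1.02 in every library. The cause of this mismatch between count and FPKM was not tested.

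The summed FPKM of the 10 members was 102, 108 and 103 in FF and 110.2, 113 and 106 in cKO, with overlapping groups. The highest CPM was in cKO replicate 1 for 5 members, in cKO replicate 2 for 4 and in FF replicate 2 for 1. The lowest was in FF replicate 3 for 5, in cKO replicate 3 for 3, and in FF replicate 2 and cKO replicate 2 for 1 each.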
